A study of Homo sapiens with 12 samples.

Results

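The 7 genes described here, MRPS16, NDUFS1, ATP5G2, RPL22L1, SNRPD1, POLR2F and the PCLAF locus, each had a proximal and a distal transcript end that were recovered unequally when STAU1 was pulled down from human cells. They were chosen from 17 such pairs of ends among 3811 pairs measured. The choice was made on the difference between the STAU1 pull-down and its input, so those counts are given for the 7 genes as a description, with no test. The difference between the pull-down of a control protein and its own input was not used to choose them and was tested. All 8 pull-down libraries set the spread in the fit behind the choice, however, and with only the 4 STAU1 libraries none of the 7 pairs was called. The tests of the control pull-down are therefore not fully independent of the choice, which took pairs with little spread in those libraries too.

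The study counted the 3' ends of polyadenylated RNA in HEK293T cells, a line of human embryonic kidney origin, in 12 libraries made with 3'READS+, which reads the piece of each transcript next to its poly(A) tail. The series asked how binding of Staufen1 differs between transcripts of a gene with alternative 3' ends, and how this relates to polysomes. The STAU1 IP group was RNA from an anti-FLAG pull-down out of STAU1-KO cells that transiently expressed STAU1-FLAG, and the STAU1 input group was poly(A)+ RNA of the total lysate of such cells. The GFP IP and GFP input groups were the same for STAU1-KO cells that transiently expressed FLAG-GFP. Each of these 4 groups had 2 libraries, and all 8 libraries came from the knockout background, so that the tagged protein stood in for the deleted one. The other 4 libraries were polysomal and cytoplasmic RNA of STAU1-KO cells and polysomal and cytoplasmic RNA of wild-type cells, with 1 library each and therefore no replicate check. The knockout was a single clone, C8, made with paired Cas9 nickases, and its isogenic control was C9. The labels do not say whether replicates came from separate cultures, so p-values measure the spread between these libraries, which may be technical.

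Staufen1 is a double-stranded RNA-binding protein that binds base-paired RNA, often in 3' untranslated regions (3' UTRs), and takes part in mRNA decay, translation and transport. Alternative polyadenylation gives a gene transcripts that end at different places, so a transcript with a distal end can carry sequence that one with a proximal end lacks. A transcript that is bound would then be pulled down with the protein while a shorter or longer form of the same gene is not.

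The pull-down libraries held between 1245270 and 9655646 reads, with the GFP IP libraries the shallowest at 1291888 and 1245270 reads. The fraction libraries held between 2799226 and 3483937 reads. STAU1 input replicate 1 stood apart from the other pull-down libraries on the third principal component and covered 99156 sites, while replicate 2 of that group covered 175098. Without it, the change of the ratio of ends in the STAU1 pull-down was still between 2.79 and 5.48 on the log2 scale for the 6 genes with a higher distal end, and -3.57 for ATP5G2. On the second component GFP IP replicate 1 lay furthest out, at -178, against -74.7 for GFP IP replicate 2. The second component held 21.6% of the variance and the third 16.7%. The tables list sites by chromosome, strand and position in hg19 and pair none of them with a gene, so the gene names are those given with the positions. Whether an end lies in a 3' UTR, an intron or a neighbouring gene was not determined, and the level of the STAU1 transcript in the knockout was not analysed here.

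The first of the 3 genes for mitochondrial proteins was MRPS16, which encodes a protein of the small subunit of the mitochondrial ribosome. Its ends lie on the minus strand of chromosome 10 at 75010500 (proximal) and 75008608 (distal), 1892 nt apart. The distal end had 4950 and 3434 reads in the STAU1 IP libraries, against 1006 and 1479 in the STAU1 inputs. The proximal end had 574 and 465 reads in the STAU1 IP libraries, against 1501 and 2639 in the STAU1 inputs. The distal share, that is distal reads over the reads of both ends, was thus 89.6% and 88.1% in the STAU1 IP libraries and 40.1% and 35.9% in the STAU1 inputs. In the control pull-down it was 60.9% and 61.0% in the GFP IP libraries and 35.1% and 38.0% in the GFP inputs. The distal share of MRPS16 was therefore higher in both pull-downs than in every input, and higher in the STAU1 IP libraries than in the GFP IP libraries, with no overlap.

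NDUFS1 encodes an iron-sulfur subunit of complex I of the respiratory chain, and its ends lie on the minus strand of chromosome 2 at 206988543 and 206986696, 1847 nt apart. The distal end had 182 and 197 reads in the STAU1 IP libraries, against 19 and 48 in the STAU1 inputs. The distal share was 53.8% and 68.9% in the STAU1 IP libraries and 8.72% and 9.76% in the STAU1 inputs. It was 28.3% and 28.6% in the GFP IP libraries and 20.5% and 12.8% in the GFP inputs. The GFP IP values of NDUFS1 lay above both GFP inputs but rest on 13 and 10 distal reads. The distal end was the minor one in every input and the more frequent one in both STAU1 IP libraries.

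ATP5G2, now named ATP5MC2 in RefSeq, encodes a form of subunit c, which builds the membrane ring of ATP synthase. It was the only one of the 7 genes whose proximal end was favoured in the STAU1 pull-down. Its ends lie on the minus strand of chromosome 12 at 54062100 and 54058955, 3145 nt apart. The proximal end had 377 and 365 reads in the STAU1 IP libraries, against 33 and 74 in the STAU1 inputs. The proximal share was 64.7% and 53.3% in the STAU1 IP libraries and 6.23% and 10.8% in the STAU1 inputs. In the control it was 19.3% and 31.3% in the GFP IP libraries and 12.2% and 11.7% in the GFP inputs. The proximal share thus lay above the inputs in both pull-downs, and the 2 GFP IP values lay below both STAU1 IP values.

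RPL22L1 encodes a paralogue of the ribosomal protein RPL22, of the large subunit of the cytosolic ribosome. Its ends lie on the minus strand of chromosome 3 at 170584101 and 170582672, 1429 nt apart, the shortest distance of the 7 pairs. The distal share was 55.8% and 57.6% in the STAU1 IP libraries and 14.6% and 15.8% in the STAU1 inputs. It was 55.0% and 42.5% in the GFP IP libraries and 21.5% and 19.2% in the GFP inputs. For RPL22L1 the share in GFP IP replicate 1 lay within 1 percentage point of STAU1 IP replicate 1, and both GFP IP libraries lay above every input. The distal end itself had 197 and 141 reads in the STAU1 IP libraries against 141 and 280 in the STAU1 inputs, and was not above its input.

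SNRPD1 encodes a core protein of the Sm ring of spliceosomal ribonucleoproteins. Its ends lie on the plus strand of chromosome 18 at 19209195 and 19213481, 4286 nt apart. The distal end had 212 and 254 reads in the STAU1 IP libraries, against 64 and 104 in the STAU1 inputs. The distal share was 23.2% and 29.1% in the STAU1 IP libraries and 3.57% and 3.55% in the STAU1 inputs. It was 6.99% and 3.72% in the GFP IP libraries and 3.96% and 1.87% in the GFP inputs, so that the GFP groups overlapped. The GFP IP libraries held only 16 and 8 distal reads of SNRPD1. The proximal end was the more frequent one in every library.

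POLR2F encodes a subunit shared by the nuclear RNA polymerases, and its ends lie on the plus strand of chromosome 22 at 38363806 and 38365318, 1512 nt apart. The distal end had 100 and 75 reads in the STAU1 IP libraries, against 26 and 43 in the STAU1 inputs. The distal share was 25.8% and 27.9% in the STAU1 IP libraries and 2.23% and 3.17% in the STAU1 inputs. It was 3.57% and 5.94% in the GFP IP libraries and 3.10% and 4.06% in the GFP inputs. The GFP groups of POLR2F overlapped, and the GFP IP libraries held only 2 and 6 distal reads. The distal share in the STAU1 IP libraries lay above every other library.

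PCLAF encodes a factor that binds the replication clamp PCNA, and the ends at its locus lie on the minus strand of chromosome 15 at 64657790 and 64653165, 4625 nt apart, the longest distance of the 7 pairs. The distal end had 260 and 141 reads in the STAU1 IP libraries, against 51 and 57 in the STAU1 inputs, while the proximal end had 22 and 29 reads in the STAU1 IP libraries, against 273 and 339 in the STAU1 inputs. The distal share was 92.2% and 82.9% in the STAU1 IP libraries and 15.7% and 14.4% in the STAU1 inputs. It was 35.7% and 60.0% in the GFP IP libraries and 22.6% and 12.8% in the GFP inputs. The GFP IP shares of PCLAF rest on 14 and 20 reads in all, and their exact 95% intervals, which cover counting error only, ran from 12.8% to 64.9% and from 36.1% to 80.9%. The STAU1 IP libraries were the highest of the 8 at this locus.

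**Figure D1:**
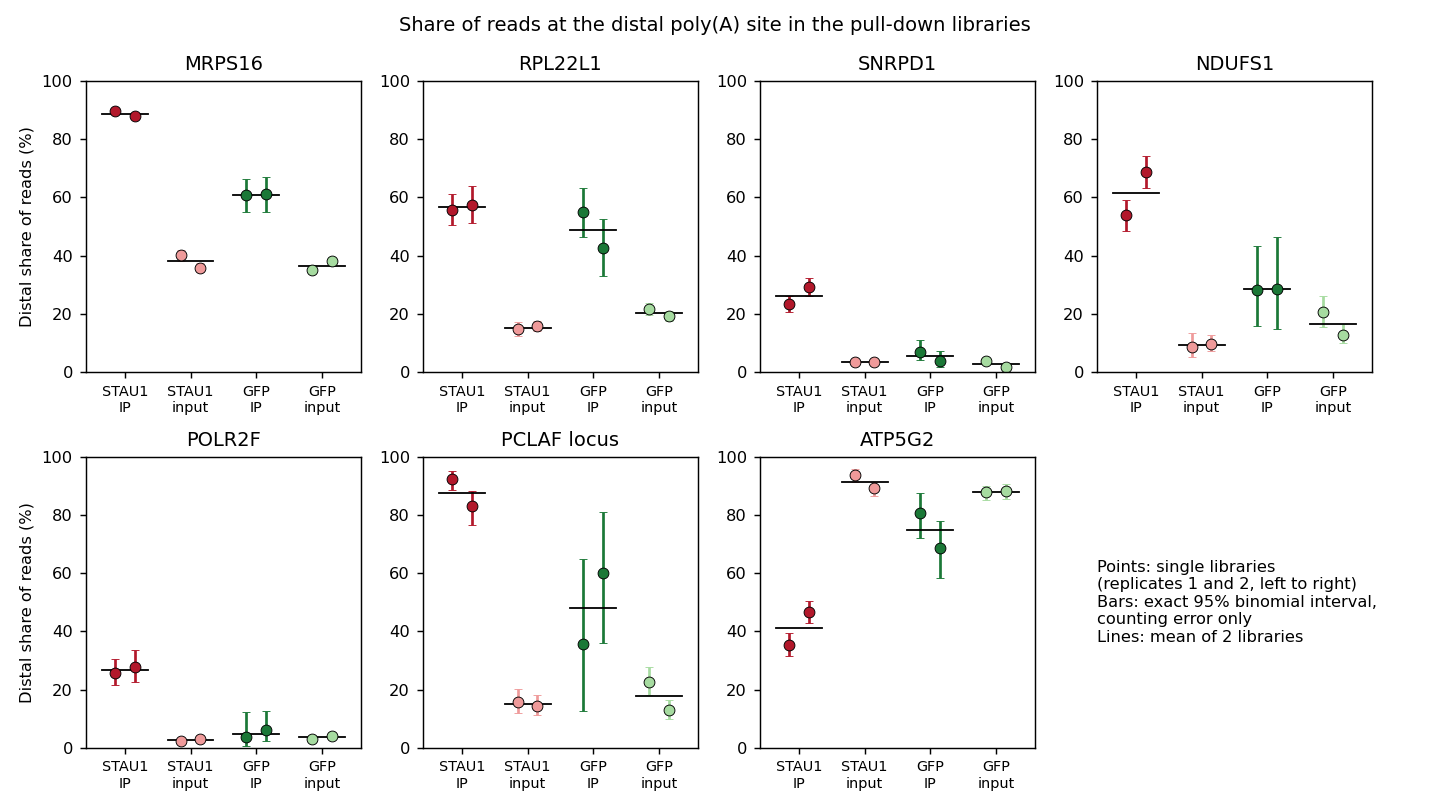
Distal share of reads (%) for each of the 7 genes in the 8 pull-down libraries, in the order STAU1 IP, STAU1 input, GFP IP, GFP input, with 1 point per library, vertical bars for exact 95% intervals that cover counting error only, and a horizontal line at the mean of each group. The STAU1 IP points lie above the STAU1 input points for 6 genes and below them for ATP5G2, as the choice of the genes requires.

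On the log2 scale, the ratio of distal to proximal reads was higher in STAU1 IP than in STAU1 input by 3.70 ± 0.41 (SE, 2 libraries a group, likewise below) for MRPS16, 3.97 ± 0.69 for NDUFS1, 2.86 ± 0.50 for RPL22L1, 3.25 ± 0.54 for SNRPD1, 3.74 ± 0.55 for POLR2F and 5.40 ± 0.81 for PCLAF. For ATP5G2 it was -3.99 ± 0.61. These differences correspond to ratios that differed 7.27-fold for RPL22L1 up to 42.3-fold for PCLAF. Over all 3811 pairs the STAU1 median was 0.20, with 14 pairs called higher (0.367%) and 3 lower (0.0787%) at an adjusted p of 0.05, 0.446% in all. The 7 genes stood at places 2, 4, 6, 8, 11, 15 and 16 in the order of the adjusted p. The last members inside the threshold were RPL22L1 and NDUFS1, both with an edgeR adjusted p of 0.0403. The first pair outside it lay on the minus strand of chromosome 19 at 47728186 and 47724081. That pair had a log2 difference of -4.60 and an edgeR adjusted p of 0.0622. Past the threshold were 1 of the 7 pairs with a replicate block or with a mean of at least 5 reads. With DESeq2 or at least 30 reads all 7 were. The number of the 7 pairs past the threshold depended on the libraries: it was 0 when either of the STAU1 IP libraries was left out, and 1 when any one of the GFP libraries was. Leaving out STAU1 input replicate 1 gave 1, and leaving out the other STAU1 input gave 7.

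The control pull-down asked whether the ends of these genes also part when an unrelated tagged protein is pulled down. Relative to GFP input, the log2 ratio of distal to proximal reads in GFP IP had the same sign as with STAU1 in all 7 genes, but none passed the test over all pairs. Of all pairs, 49.2% had a positive GFP difference and 56.2% a positive STAU1 difference. The share of all pairs in which both signs agree was not counted, so nothing is read from this agreement. By edgeR's quasi-likelihood test with Benjamini-Hochberg adjustment, the GFP difference was 1.44 ± 0.41 for MRPS16 (adjusted p = 0.258) and 1.90 ± 0.51 for RPL22L1 (adjusted p = 0.238). It was 2.20 ± 0.88 for PCLAF (adjusted p = 0.372 by edgeR). The edgeR differences were 1.03 ± 0.72 for NDUFS1, 0.98 ± 0.59 for SNRPD1 and 0.49 ± 0.68 for POLR2F, and -1.28 ± 0.62 for ATP5G2, with adjusted p between 0.453 and 0.806. Several of these GFP values rested on 1 library. POLR2F was 0.77 without GFP IP replicate 1, 0.02 without GFP IP replicate 2 and 0.30 without GFP input replicate 1. For SNRPD1, leaving out GFP IP replicate 1 gave 0.45, leaving out GFP input replicate 1 gave 1.54, and leaving out the other GFP input gave 0.43. NDUFS1 was 0.62 without GFP input replicate 2, and without GFP IP replicate 2 PCLAF was 1.42 and ATP5G2 -0.81. None of these passed, and all kept their sign. Before adjustment MRPS16, RPL22L1 and PCLAF had an edgeR p under 0.05, 3 of the 7, against 443 of all pairs (11.6%).

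No pair of the 3811 passed the adjusted threshold in the GFP contrast by edgeR (0%), and DESeq2 called 14 pairs higher and 31 lower with none of the 7 genes among them. The median GFP difference over all pairs was -0.03, and over the 7 genes 1.03. RPL22L1 passed when pairs with a mean of at least 30 reads at each end were used (edgeR adjusted p = 0.0455, over a range of 0.0455 to 0.740 in the alternatives tried). A difference that missed the threshold does not show that GFP left the ends unchanged, since the SE of these values was between 0.41 and 0.88 on the log2 scale.

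Set side by side, the STAU1 difference exceeded the GFP difference by 2.27 on the log2 scale for MRPS16, 2.94 for NDUFS1, 0.96 for RPL22L1, 2.28 for SNRPD1, 3.24 for POLR2F and 3.21 for PCLAF, and was -2.71 for ATP5G2. These values share the STAU1 libraries that chose the genes and carry no test. RPL22L1 had the smallest of them, and their SE was not computed. Whether the description as isoform-specific STAU1 pull-down fits RPL22L1 less closely than the other genes was not tested.

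**Figure D2:**
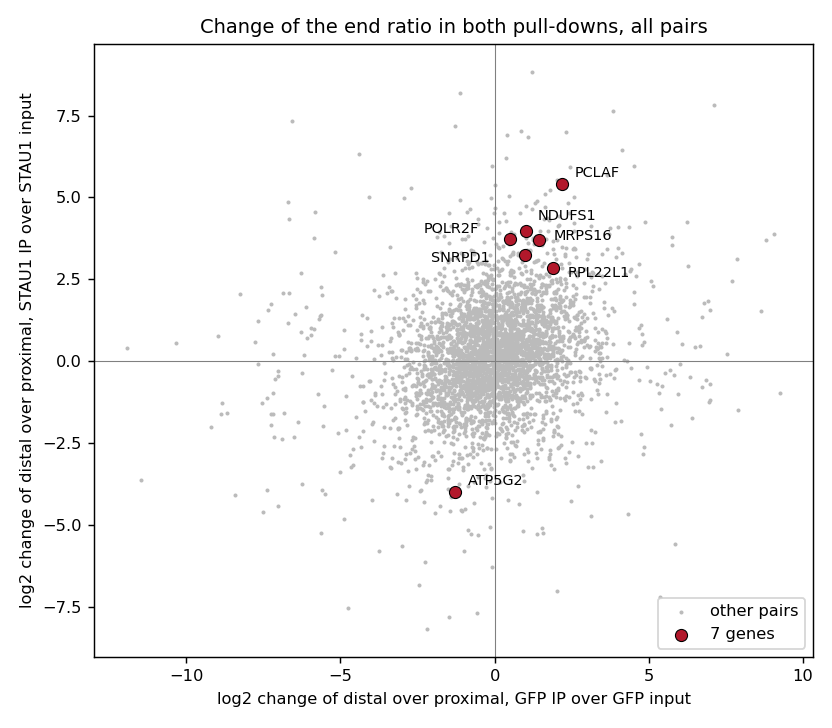
Change of the log2 ratio of distal to proximal reads in GFP IP over GFP input (horizontal) and in STAU1 IP over STAU1 input (vertical), for all 3811 pairs (grey) and the 7 genes (red). The 6 genes with a higher distal end sit at the upper right, from 2.86 (RPL22L1) to 5.40 (PCLAF) on the vertical axis, and ATP5G2 sits at the lower left at -3.99.

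Each end was then set against its own input, which shows what the change of ratio was made of. In the STAU1 pull-down the favoured end lay above both inputs in both libraries in 6 of the 7 genes, as did 28.8% of all sites and 30.1% of the 9982 sites in the range of mean levels of the 14 ends. The log2 difference was 1.94 ± 0.20 for the distal end of MRPS16, 2.77 ± 0.49 for NDUFS1, 1.69 ± 0.45 for SNRPD1, 1.55 ± 0.66 for POLR2F and 2.03 ± 0.50 for PCLAF, and 3.04 ± 0.38 for the proximal end of ATP5G2. The distal end of RPL22L1 was at -0.08 ± 0.31, and the libraries overlapped. The other end lay below both inputs in 7 of 7 genes (21% of all sites and 31.4% of those in the same range of levels), from -0.90 ± 0.27 for the distal end of ATP5G2 to -3.41 ± 0.40 for the proximal end of PCLAF. These counts come from values that chose the genes, and nothing is read from them. The proximal end of RPL22L1 was at -2.93 ± 0.25, so that the gap between its ends lay on the proximal side. Across all 33744 sites tested, 1077 were called higher (3.19%) and 1011 lower (3%) in STAU1 IP over STAU1 input, 6.19% in all.

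In the GFP pull-down the proximal ends fell in 5 genes by edgeR's quasi-likelihood test over all sites, with Benjamini-Hochberg adjustment. The log2 difference, GFP IP over GFP input, was -2.05 ± 0.20 for MRPS16 (adjusted p = 5.58e-06), -2.04 ± 0.25 for RPL22L1 (adjusted p = 3.43e-05) and -1.40 ± 0.19 for SNRPD1 (adjusted p = 0.000103). It was -2.74 ± 0.44 for PCLAF (adjusted p = 0.000560) and -1.27 ± 0.29 for POLR2F (adjusted p = 0.0105). That is 5 of the 7 ends not favoured by STAU1, against 3.81% of all sites called lower and 10.9% of the 9982 sites with a mean level in the same range as the 14 ends. This range, 6.99 to 305 CPM, was set by both ends of each gene. The 7 ends not favoured were the more-read ones in the inputs, so the background is not matched to their levels. All 7 lay below both inputs in GFP IP, as did 29.7% of all sites and 40.8% of the sites in the range of levels of the 14 ends, with NDUFS1 proximal at -0.84 ± 0.39 and ATP5G2 distal at -0.59 ± 0.28, and neither passed. The POLR2F call was lost with library totals in place of TMM scaling (adjusted p = 0.0513) and without GFP IP replicate 1 (adjusted p = 0.138), over a range of 6.73e-08 to 0.138 in the alternatives tried. With edgeR these are levels relative to all sites, whose median GFP change was -0.12 with TMM scaling, 0.00 under RLE scaling and 0.15 when only library totals were used. The calls over all sites, 763 higher and 1284 lower with TMM, were 925 higher and 1050 lower under RLE scaling and 1262 higher and 728 lower when only library totals were used.

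Of the favoured ends, NDUFS1 distal and ATP5G2 proximal lay above both inputs in GFP IP (21% of all sites and 24.6% in the range of levels) and MRPS16 distal lay below both. None of the 7 favoured ends was called higher or lower in the GFP pull-down by edgeR, with 2.26% of all sites called higher (6.2% of those in the range of levels of the 14 ends) and 6.07% called either way. Before adjustment, 1 of the 7 (MRPS16) had an edgeR p under 0.05, and DESeq2 called none of them. The distal end of MRPS16, at 811 and 601 CPM in the STAU1 IP libraries, was at 194 and 174 CPM in the STAU1 inputs. It was at 131 and 130 CPM in the GFP IP libraries and 190 and 210 CPM in the GFP inputs. This is a GFP difference of -0.62 ± 0.20 with an edgeR adjusted p of 0.0806, which did not pass, although the GFP IP libraries lay below both GFP inputs and the STAU1 IP libraries above both STAU1 inputs. It passed the threshold in 6 of the alternatives listed in the closing part. The GFP differences were 0.25 ± 0.52 for NDUFS1, -0.10 ± 0.32 for RPL22L1, -0.51 ± 0.51 for SNRPD1, -0.75 ± 0.78 for POLR2F and -0.44 ± 0.57 for PCLAF, and 0.70 ± 0.39 for the proximal end of ATP5G2. Signs of RPL22L1, NDUFS1 and SNRPD1 turned under at least 1 alternative.

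**Figure D3:**
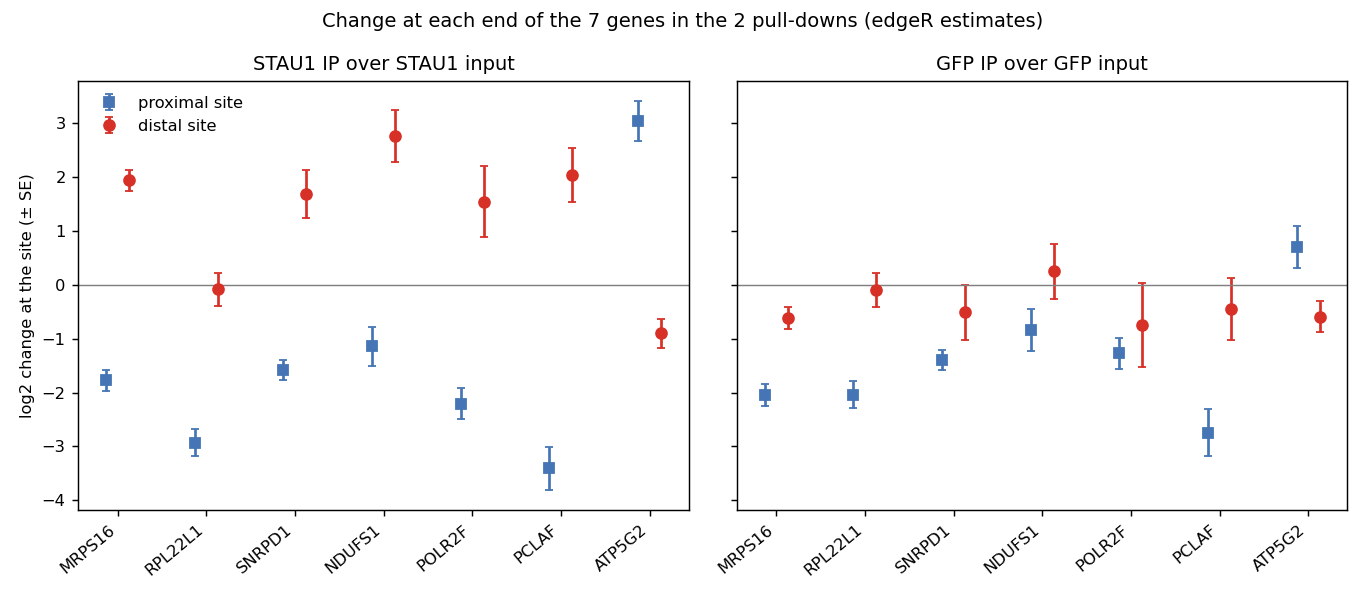
Log2 difference of the proximal (blue squares) and distal (red circles) end of each gene, STAU1 IP over STAU1 input on the left and GFP IP over GFP input on the right, with bars of 1 SE. The ends favoured by STAU1 (distal, but proximal for ATP5G2) lie from -0.08 to 3.04 on the left and from -0.75 to 0.70 on the right, and the other ends from -3.41 to -0.90 on the left and from -2.74 to -0.59 on the right.

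In the inputs, the end favoured by STAU1 was the minor one. With the minor end set by the GFP inputs it was so in 7 of 7 genes; over all 3811 pairs the minor end gained in the STAU1 pull-down in 54.1%, and in 7 of the 10 other called pairs. The favoured end is defined by the values that chose the genes, so this is a description. With the minor end set by the STAU1 inputs, it gained in the GFP pull-down in 7 of 7 genes, in 50.3% of all pairs and in 6 of the 10 other called pairs. In all 7 genes this minor end was the favoured one, and the STAU1 inputs took part in the choice. The count therefore restates the shared sign of the STAU1 and GFP differences and is a description too. The ends of the 7 genes were 1429 to 4625 nt apart (median 1892 nt), and 4 of the distances lay within the quartiles of all pairs, 438 and 2554 nt (median 1222 nt). The 10 other called pairs were 1536 to 5797 nt apart.

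Other ends near the named ones were few. Within 500 nt of the 14 ends there were 15 more sites with at least 10 reads. The most used was an RPL22L1 site at 170584055, 46 nt from the proximal end, with 30 and 23 reads in the STAU1 IP libraries, against 261 and 392 in the STAU1 inputs. It had 16 and 9 reads in the GFP IP libraries, against 267 and 468 in the GFP inputs. This site therefore behaved like the proximal end next to it. With neighbours summed, the distal share of RPL22L1 in the STAU1 inputs was 11.5% and 13% in place of 14.6% and 15.8%. The share of PCLAF in STAU1 IP replicate 1 was then 83.9% in place of 92.2%. In GFP IP replicate 1 it was 18.5% in place of 35.7%, and in replicate 2 it was 54.5%. The GFP inputs had 21.0% and 11.4%, so the GFP groups of PCLAF then overlapped. The edgeR GFP difference of PCLAF was 1.54 with neighbours summed, in place of 2.20.

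Between the paired ends there were 14 sites, a set looked at after its values had been seen. At the PCLAF locus an end at 64656904 had 146 and 117 reads in the STAU1 IP libraries, against 27 and 22 in the STAU1 inputs, and 2 and 3 reads in the GFP IP libraries, against 15 and 10 in the GFP inputs. At SNRPD1 an end at 19212526 had 79 and 42 reads in the STAU1 IP libraries, against 0 and 13 in the STAU1 inputs, and 5 and 2 reads in the GFP IP libraries, against 4 and 4 in the GFP inputs. Both intermediate ends were high with STAU1, as the distal ends were. Scaled for depth, the intermediate ends of PCLAF summed to a mean of 26.9 CPM in STAU1 IP and 5.22 in STAU1 input. In GFP IP they were at 2.61 CPM and in GFP input at 3.93. Those of SNRPD1 had a mean of 14.1 CPM in STAU1 IP and 2.02 in STAU1 input. Their mean of 4.41 CPM in GFP IP also lay above the 2.78 in GFP input, on 9 and 3 GFP IP reads. Summed, the intermediate ends of RPL22L1 and MRPS16 were not higher in STAU1 IP than in STAU1 input. Those of MRPS16 summed to a mean of 1.97 CPM in STAU1 IP, 6.05 in STAU1 input, 1.08 in GFP IP and 5.40 in GFP input. Those of RPL22L1 had a mean of 3.03 CPM in STAU1 IP, 5.45 in STAU1 input, 3.03 in GFP IP and 17.4 in GFP input.

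The pairs most like the 7 genes over the 8 pull-down libraries, by the Pearson correlation of the log2 ratio of ends among 1648 pairs, were not members. A pair on the plus strand of chromosome 8 at 42986314 and 42987876 was most like MRPS16 (r = 0.993) and PCLAF (r = 0.982). A pair on the minus strand of chromosome 3 at 156260796 and 156257937 was most like SNRPD1 (r = 0.961) and NDUFS1 (r = 0.976). RPL22L1 was most like a pair on the minus strand of chromosome 19 at 7991604 and 7989382 (r = 0.982), POLR2F like one on the plus strand of chromosome 7 at 44841240 and 44842715 (r = 0.974), and ATP5G2 like one on the plus strand of chromosome 19 at 21305435 and 21309542 (r = 0.951). All values share the 8 libraries, and the correlations describe likeness in them and nothing about function.

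Polysomes are mRNAs with several ribosomes attached, and setting their RNA against cytoplasmic RNA shows how far each end was found with ribosomes. There was 1 library per group, so the values have no test, and their intervals cover counting error only. In bulk RNA, fewer cells with an isoform and less of it per cell cannot be told apart. The distal share of MRPS16 was 28.2% in the KO polysome, 34.2% in the KO cytoplasm, 33.6% in the WT polysome and 43.7% in the WT cytoplasm. Its log2 ratio of distal to proximal was lower in polysome than in cytoplasm by -0.41 in KO (interval -0.55 to -0.27) and by -0.62 in WT (-0.76 to -0.48). In both genotypes the distal MRPS16 end thus had a lower share in the polysome library. Compared between genotypes, the distal ratio of MRPS16 was -0.58 (-0.72 to -0.43) in KO over WT cytoplasm and -0.37 (-0.50 to -0.23) in KO over WT polysome.

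For the other genes the counting intervals mostly covered 0. NDUFS1 had a distal share of 11.7% in the KO polysome and 8.09% in the KO cytoplasm, and of 13.1% in the WT polysome and 4.05% in the WT cytoplasm. Its log2 ratio of distal to proximal in polysome over cytoplasm was 0.58 (-0.59 to 1.76) in KO and 1.84 (0.39 to 3.29) in WT, where the WT cytoplasm held 6 distal reads. PCLAF had a distal share of 1.86% in the KO polysome and 3.53% in the KO cytoplasm, and of 2.58% in the WT polysome and 3.53% in the WT cytoplasm, with log2 ratios of -0.94 (-1.67 to -0.22) in KO and -0.47 (-1.23 to 0.30) in WT. The corresponding log2 ratios in KO and in WT were -0.05 and -0.28 for RPL22L1, 0.36 and 0.12 for SNRPD1, and -0.40 and -0.35 for POLR2F.

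Among the 905 pairs with at least 20 reads at each end in each fraction library, 28.8% differed by more than 1.5-fold between KO polysome and KO cytoplasm, 36.1% between WT polysome and WT cytoplasm, 17.2% between KO and WT polysome and 28.3% between KO and WT cytoplasm. Of the 6 genes with a value, PCLAF passed this fold between KO polysome and KO cytoplasm, MRPS16 and NDUFS1 between WT polysome and WT cytoplasm, none between the polysomes and NDUFS1 between the cytoplasms. NDUFS1 had 6 to 14 distal reads a library, below that minimum, and is not among the 905 pairs. Of the 5 genes that are, PCLAF passed the fold in KO and MRPS16 in WT for polysome over cytoplasm, and none did between the genotypes. The median log2 ratio over the 6 genes was -0.23 in KO and -0.32 in WT for polysome over cytoplasm. Over the 905 pairs, which leave out NDUFS1, the median was 0.09 in each genotype. In each genotype 2 of the 6 were positive, NDUFS1 among them, and 4 negative. Signs over the 905 pairs were not counted, so nothing is read from this count.

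The single ends give the parts of each ratio, but their levels depend on the scaling. The proximal end of PCLAF was higher in polysome than in cytoplasm by a log2 ratio of 0.95 in KO and 0.91 in WT. Its distal end was at 0.00 in KO (interval -0.72 to 0.72) and 0.44 in WT (-0.31 to 1.20). The MRPS16 proximal end was at 0.26 in KO and 0.31 in WT, and its distal end at -0.15 in KO and -0.31 in WT. Both ends of SNRPD1 were higher in polysomes, at 0.42 for the proximal and 0.78 for the distal end in KO and at 0.55 and 0.67 in WT. The proximal end of NDUFS1 was lower in polysomes, at -1.13 in KO and -0.93 in WT. Ends were scaled by TMM. With library totals, 13 of the 26 single-end values left their counting interval, and 1 more, the distal MRPS16 value in KO, turned to 0.058. In WT the distal MRPS16 value was then -0.05 and the proximal one 0.57, so which end moved was not settled.

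The proximal end of ATP5G2, favoured by STAU1 in the pull-down, has no entry in the table of the fractions, whose nearest listed site on that strand is 878 nt away. The table lists sites down to 1 read in all, so the missing entry was taken as 0 reads in all 4 libraries. Its distal end had 810 reads in the KO polysome, 551 in the KO cytoplasm, 567 in the WT polysome and 436 in the WT cytoplasm. Taking 3 reads of the total as the limit that a count of 0 allows, the proximal share could be up to 0.370% in the KO polysome, 0.544% in the KO cytoplasm, 0.529% in the WT polysome and 0.688% in the WT cytoplasm. The exact 95% intervals reach 0.454% in the KO polysome, 0.667% in the KO cytoplasm, 0.649% in the WT polysome and 0.843% in the WT cytoplasm, and both limits cover counting error only. In the pull-down inputs from whole lysate the proximal share was between 6.23% and 12.2%. The 2 tables were made separately, and nothing at hand says how sites were merged in each, so levels set across them are a description.

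The favoured share was lower in the KO cytoplasm than in both GFP inputs, from the same knockout background, in 5 of the 7 genes. One of these is ATP5G2, whose missing entry was taken as 0 reads. In those libraries 1172 pairs had at least 20 reads at each end, and the favoured share was lower in 44.2% of them. It was lower in 3 of the 5 genes among them, so the share is near that of all pairs. The difference in the log2 ratio of distal to proximal, KO cytoplasm minus GFP input, was -2.50 for PCLAF, -1.40 for RPL22L1, -1.15 for NDUFS1, -0.51 for SNRPD1, -0.15 for MRPS16 and 0.51 for POLR2F. Over 1172 pairs the median was -0.10, and the 5th to the 95th percentile ran from -2.31 to 2.16. PCLAF lay below this range and the others inside it. NDUFS1, with 14 distal reads in the KO cytoplasm, is not among the 1172 pairs.

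**Figure D4:**
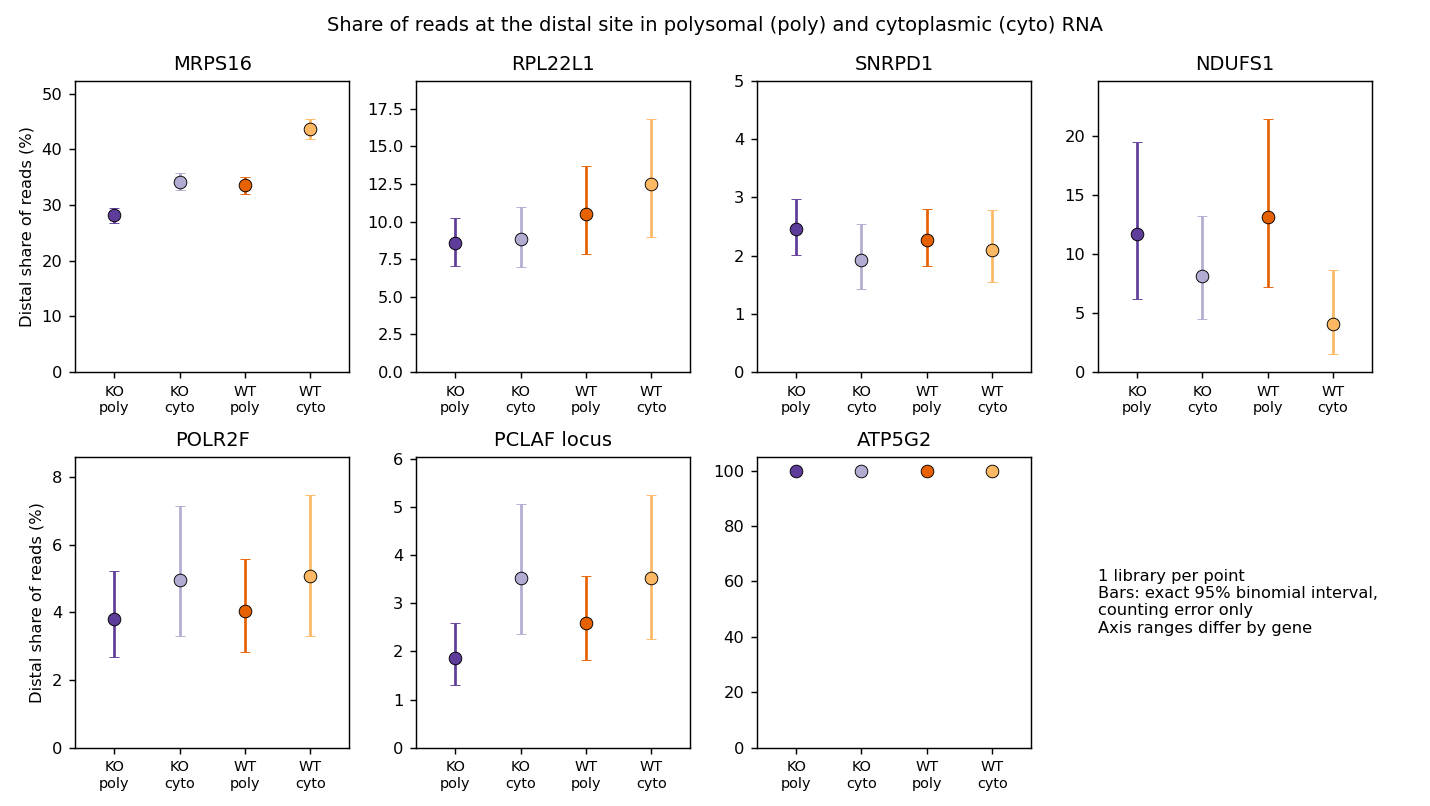
Distal share (%) of the 7 genes in the 4 fraction libraries, in the order KO polysome, KO cytoplasm, WT polysome, WT cytoplasm, with vertical axes that differ by gene and exact 95% intervals that cover counting error only. MRPS16 is lowest in the KO polysome (28.2%) and highest in the WT cytoplasm (43.7%), and ATP5G2 is at 100% throughout because its proximal end has no reads.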

How the data were processed

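Raw counts of reads at each poly(A) site were deposited in a pull-down table (640413 sites, 8 libraries) and a fractions table (189010 sites, 4 libraries), and STAR and hg19 are named in the submitters' processing notes. Clustering of sites and removal of reads are not given in the sources used here. From these counts, CPM and shares were computed. Pairs were the most-read site of a run (gaps up to 5000 nt, chromosomes 1 to 22 and X) and the next most-read site at least 100 nt away, both averaging 10 reads or more over the libraries. Pairs and the 33744 sites passing filterByExpr were fitted over the 8 libraries with edgeR 4.0.16 (quasi-likelihood, TMM, R 4.3.3) and Benjamini-Hochberg adjusted at 0.05, after tests on simulated data. The pair fit held library and site effects and their site-by-group interaction, with 4 residual degrees of freedom. Fraction sites were matched within 24 nt. For the per-library ratios behind the correlations and the minor ends, 0.5 was added to counts before log2, and the fraction ratios had nothing added. All 7 genes and both their ends are named, with, for each gene, the pair most like it (mean of at least 30 reads). The genes and lists were chosen with earlier results of these data known. Alternatives were other minimum reads, summed neighbours, other scaling, DESeq2 1.42.0, a replicate block and leaving out each library.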

Additional observations from a re-analysis of the deposited data

Results flagged for a closer look

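The distal end of MRPS16 lay on opposite sides of its inputs in the pull-downs, though the GFP difference did not pass the test. It was at 811 and 601 CPM in the STAU1 IP libraries, above the STAU1 inputs at 194 and 174 CPM, and at 131 and 130 CPM in the GFP IP libraries, below the GFP inputs at 190 and 210 CPM (a GFP log2 difference of -0.62 with an edgeR adjusted p of 0.0806, over a range of 1.32e-05 to 0.455 in the alternatives tried). Every library of one pull-down was thus above its inputs and every library of the other below. Of all sites, 28.8% lay above both inputs in STAU1 IP and 29.7% below both inputs in GFP IP, and the share with both was not counted. The difference between the pull-downs was not tested, since the STAU1 libraries chose the gene.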

How the results depend on the processing

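Counts of called pairs depended on the setting. The GFP contrast, with 0 pairs called, gave 17 higher and 21 lower with at least 30 reads, 2 and 7 with only its 4 libraries, 14 and 31 with DESeq2, and 0 to 1 higher and 0 to 2 lower without single libraries. The STAU1 contrast, with 14 higher and 3 lower, gave 2 and 0 with at least 5 reads, 58 and 22 with at least 30 reads, 0 and 0 with only its 4 libraries, 82 and 43 with DESeq2, 4 and 0 with the replicate block, and 0 to 78 higher and 0 to 46 lower without single libraries. Its log2 differences for the 7 genes kept their sign throughout. GFP site calls, 763 higher and 1284 lower, were 1262 and 728 with library totals, 205 higher without a filter, 1229 higher with DESeq2, and 326 to 1045 higher and 786 to 2192 lower without single libraries. Deviations of IP and input libraries with the same replicate number were uncorrelated over all tested sites (0.0049 for STAU1 and 0.0015 for GFP). The labels do not say which libraries share a lysate, and these correlations, which include many sites with few reads, cannot settle it. With the replicate block, GFP sites were 898 higher and 1555 lower.

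Some GFP site values changed sign. The RPL22L1 distal end was 0.030 with RLE, 0.21 with library totals, 0.030 with DESeq2, and -0.59 to 0.094 without single libraries (positive without GFP IP replicate 2). NDUFS1 distal was -0.22 without a filter and -0.016 to 0.27 without single libraries (negative without GFP IP replicate 1). SNRPD1 distal was -1.13 to 0.067 without single libraries (positive without GFP input replicate 1). The KO polysome over cytoplasm ratio of the MRPS16 distal end was 0.058 with library totals. The cause of these changes was not tested. The MRPS16 distal end passed in GFP without a filter (edgeR adjusted p = 1.32e-05), with the replicate block (0.0496), and without STAU1 IP replicate 2 (0.0339), STAU1 input replicate 1 (0.0103) or 2 (0.0273), or GFP input replicate 1 (0.0214), over a range of 1.32e-05 to 0.455. Depth limits the GFP IP values of PCLAF, POLR2F, NDUFS1 and SNRPD1 most.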
